A study of Mus musculus with 2 samples.

Results

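The subject is a set of 10 neuropeptide genes that are active in neurons of the hypothalamus, and some of them elsewhere too. All 10, chosen by name, were found by symbol among the 32285 genes of the count tables: Avp, Oxt, Pmch, Hcrt, Agrp, Pomc, Cartpt, Trh, Crh and Gal. They were measured by single-nucleus RNA sequencing (droplet capture, 3′ ends, reads collapsed to unique molecular identifiers or UMIs) in 2 libraries. The Normal library came from 3 pooled control mice and the SAH library from 3 pooled mice taken 12 h after endovascular perforation, a filament injury of an artery at the skull base that models subarachnoid haemorrhage (SAH). All were male mice of 6 to 8 weeks by label, of strain C57BL/6J by the methods, with no other treatment named, and the tissue was the hemisphere on the injured side between 2.34 mm in front of and 2.18 mm behind bregma. The GEO labels call the controls normal while the methods of the study describe sham-operated mice, and the sources used here do not settle which they were. The methods also give an older age range than the labels, which was likewise not resolved.

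Each group was 1 library, so there is no replicate error and no test. The differences below are between these 2 libraries, and the intervals are 95% intervals for counting error only. They are exact Poisson for a level, exact binomial (Clopper-Pearson) for a share and exact conditional binomial for a log2 ratio. Intervals of levels, log2 ratios and shares of UMIs treat UMIs of the same nucleus as independent and leave out the sampling of nuclei. Where a few nuclei hold most UMIs of a gene, these intervals are too narrow. A level is given as CPM, the usual scaling of UMI counts to a fixed total per library or class. Of 12204 Normal and 18209 SAH nuclei deposited, with 114970719 and 172604358 UMIs, 10955 and 15536 were kept, with a median of 6868 and 7839.5 UMIs per nucleus. The libraries had 78 barcodes in common. The deposited SAH library holds more nuclei than the Normal one, whereas the nuclei numbers stated in the study are in the other order, and this was not resolved here. If the libraries had been exchanged, every direction given below would turn. Fewer cells of a kind in the tissue and less RNA per cell cannot be told apart in a summed level, which is why the number of nuclei and the UMIs in each are given beside it.

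Neuropeptides are cut from larger precursors, stored in dense-core vesicles and released from the cell body, dendrites or axon, and most act through G protein-coupled receptors. Avp (vasopressin) and Oxt (oxytocin) are made by neurons of the paraventricular and supraoptic nuclei, among others. Pmch (melanin-concentrating hormone) and Hcrt (orexin) mark separate neurons of the lateral hypothalamus, Agrp and Pomc mark the opposed hunger and satiety neurons of the arcuate nucleus, and Trh and Crh drive the thyroid and adrenal axes. Cartpt and Gal (galanin) are used more widely, often beside another peptide. These neurons are few, but each holds a large amount of its peptide's mRNA, so a handful of nuclei can set the level of a whole library.

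In GRCm38 with the GENCODE vM21 annotation, Oxt lies at chr2:130576173-130577054 on the plus strand and Avp at chr2:130580620-130582554 on the minus strand, so that the genes point at each other across 3565 bases. They are copies of 1 ancestral gene, and the stretch that encodes the hormone itself lies in exon 1 of both. The coding-strand bases of the hormone are shown for each gene, 5′ to 3′, because they show how alike the pair is. Capitals mark the 5 of 27 positions that differ.

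Avp (chr2:130582446-130582472, minus strand): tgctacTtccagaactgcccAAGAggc

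Oxt (chr2:130576267-130576293, plus strand): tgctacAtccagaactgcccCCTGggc

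The best local alignment of the Avp and Oxt transcripts ran over 309 columns at 88.3% identity, with an identical run of 127 bases. Within the last 300 bases of each transcript, the end nearest to where 3′ reads start, the longest identical run was 23 bases. The counts separated the pair in practice: the 23 kept nuclei with 10 or more Avp UMIs held at most 3 Oxt UMIs each, and the 9 with 10 or more Oxt UMIs held at most 2 of Avp.

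The other members lie at chr10:88091072-88092375 (Pmch), chr11:100761069-100762931 (Hcrt), chr12:3954951-3960642 (Pomc), chr13:99898489-99901091 (Cartpt), chr6:92242061-92244650 (Trh), chr3:19693401-19695396 (Crh) and chr19:3409915-3414544 (Gal). Pmch shares 944 bases with Parpbp on the opposite strand. The Agrp model stands apart: at chr8:105566698-105637393 it spans 70.7 kb, although its main transcript covers 1.60 kb, and 7 other annotated genes overlap it, 2 of them on its own strand. Since introns were counted, an Agrp UMI may come from anywhere in that span.

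The members were spread over nuclei in very different ways. At least 10 UMIs of any member were found in 85 of 10955 kept Normal nuclei (0.776%, interval 0.620 to 0.959%) and in 50 of 15536 SAH nuclei (0.322%, 0.239 to 0.424%). Over all deposited nuclei the numbers were 100 and 62. The nuclei at 10 or more UMIs held 84.3% of the Avp UMIs in Normal and 71.1% in SAH, and 74.0% and 81.8% of those of Oxt. For Agrp the shares were 6.44% and 1.28%, and for Pomc 59.9% and none. Cartpt, Trh, Crh and Gal lay between, with 10.6 to 42.3% of their UMIs in such nuclei.

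Avp is the antidiuretic and pressor hormone. Of the kept Normal nuclei, 16 held 10 or more Avp UMIs, from 40 to 196 with a median of 92, and of the SAH nuclei 7 did, with 51, 34, 28, 25, 23, 18 and 15 UMIs. Only the highest SAH nucleus, at 51, reached into the Normal range. These were 0.146% of Normal and 0.0451% of SAH nuclei (0.0835 to 0.237% and 0.0181 to 0.0928%). The UMIs in each were lower in SAH, and so was the share of such nuclei. The intervals of the share overlap, which alone does not decide whether the shares differ. The share and the UMIs are not independent, since a nucleus with fewer UMIs can fall below the threshold of 10. The SAH nuclei were the deeper ones, with a median of 10036 UMIs in all against 5931, and the median Avp level within the nucleus was 2542 CPM against 11734 CPM. These medians do not compare nuclei of the same mix. All 16 Normal nuclei held UMIs of Sim1, a factor of the paraventricular lineage, whereas the SAH nuclei with 23, 18 and 15 Avp UMIs held none. The SAH nucleus with 15 lay in a glutamatergic forebrain-like cluster.

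Oxt, the hormone of milk let-down and social behaviour, was in few nuclei of either library. In Normal 4 such kept nuclei held 481, 256, 251 and 84 UMIs, and in SAH 5 held 279, 173, 125, 101 and 100. The ranges overlapped, and the numbers of nuclei were alike at 0.0365% (0.00995 to 0.0935%) and 0.0322% (0.0105 to 0.0751%). A further 2 Normal nuclei, with 496 and 293 UMIs, and 3 SAH nuclei, with 144, 102 and 12, had been removed as likely doublets.

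Pmch and Hcrt, the lateral hypothalamic pair, rested on even fewer. For Pmch, kept Normal nuclei held 119 and 60 UMIs and kept SAH nuclei 288, 195, 156 and 116. The filters removed 3 Normal nuclei, with 575, 129 and 37 UMIs, and 2 SAH nuclei, with 217 and 129, so that the deposited tables hold 5 and 6 such nuclei. For Hcrt the only kept nuclei held 11 UMIs in Normal and 76 in SAH, while a Normal nucleus with 87 had fallen outside the quality limits.

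Pomc, the precursor of melanocyte-stimulating hormone and β-endorphin, reached 10 UMIs in 4 Normal nuclei, with 97, 45, 25 and 11 UMIs. It did so in no SAH nucleus, kept or removed. The Normal nucleus with 11 lay in a glutamatergic forebrain-like cluster. A count of 0 such nuclei among 15536 allows a share of up to 0.0193% as 3 counts of the total. By the exact binomial interval it allows up to 0.0237%, against 0.0365% in Normal with an interval down to 0.00995%. These intervals overlap, which alone does not decide whether the shares differ, so no difference in the share is read from them. Agrp, its arcuate counterpart that blocks melanocortin receptors, was held by 11 Normal nuclei with 10 to 27 UMIs and by 4 SAH nuclei with 19, 11, 10 and 10.

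The remaining genes had many nuclei just past the threshold. Cartpt, a satiety peptide, had 17 Normal nuclei with 10 to 86 UMIs and 8 SAH nuclei with 10 to 141. Trh, which releases thyrotropin, had 10 with 10 to 22 and 2 with 13 and 11, and Crh, which releases corticotropin, had 11 with 10 to 22 and 5 with 10 to 37. For Gal, 14 Normal nuclei held 10 to 20 UMIs and 17 of the larger SAH library held 10 to 57. As shares of nuclei these were 0.128% (0.0699 to 0.214%) and 0.109% (0.0638 to 0.175%), whose intervals overlap. The threshold of 10 cuts through the tail of these 4: nuclei with 5 to 9 UMIs numbered 24 to 30 in Normal and 8 to 22 in SAH, against 1 to 3 for Avp, Oxt and Pmch.

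**Figure D1:**
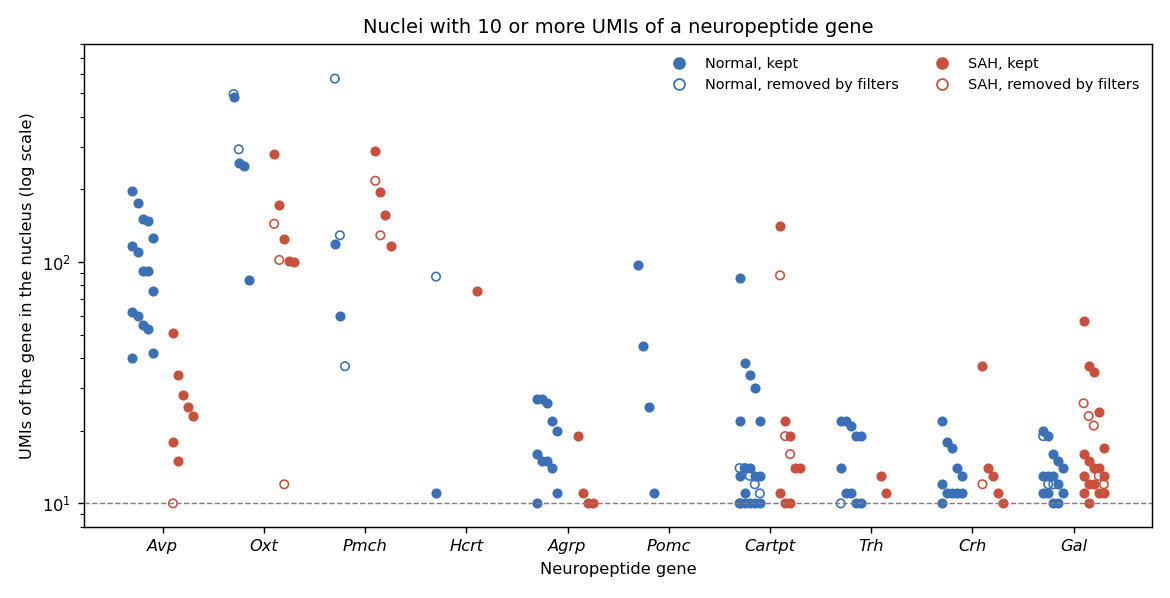
UMIs of each neuropeptide gene (log axis) in every deposited nucleus with 10 or more, for Normal (blue) and SAH (red); filled points are kept nuclei, open points were removed by the quality or doublet filter, and the dashed line is 10 UMIs. The Avp points lie at 40 to 196 in Normal against 15 to 51 in SAH among kept nuclei, Pomc has no SAH point, and for Pmch the highest Normal point, at 575, is an open one.

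Summed over all kept nuclei, 6 of the 10 members were at least 2-fold lower in SAH and none was at least 2-fold higher. Over all 22269 genes with 20 or more UMIs, 4.49% were at least 2-fold lower and 11.9% at least 2-fold higher. The median log2 ratio of SAH over Normal was −1.16 over the members and −0.05 over those genes. The members were chosen as hypothalamic genes with earlier results of these data in view, so their count is a description.

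Avp had 1890 UMIs in Normal (19.6 CPM, interval 18.7 to 20.5) and 273 in SAH (1.95 CPM, 1.72 to 2.19). The log2 ratio was −3.33 (−3.52 to −3.14), a 10.0-fold difference, and 0.00898% of the genes had a lower one. Pomc followed, with 297 UMIs (3.07 CPM) and 73 (0.521 CPM) and a log2 ratio of −2.56 (−2.95 to −2.19). Pomc is also made by pituitary cells, whose 9 listed markers summed to 0.994 CPM in Normal and 2.80 CPM in SAH, and their part in the Pomc difference was not tested. Tbx19, the corticotroph factor, had 6 and 3 UMIs, Gh 1 and 1, Prl 0 and 2, and Lhb and Fshb none, while Tshb had 57 and 277 and Cga 3 and 40.

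Trh and Crh were lower in SAH as well. Trh had 515 and 227 UMIs (5.33 and 1.62 CPM), a log2 ratio of −1.72 (−1.95 to −1.49). Crh had 646 and 400 UMIs (6.69 and 2.85 CPM), a log2 ratio of −1.23 (−1.41 to −1.05). Cartpt had 1342 and 865 UMIs (13.9 and 6.17 CPM), a log2 ratio of −1.17 (−1.30 to −1.05).

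For Oxt the UMIs were 1449 and 951 (15.0 and 6.78 CPM), a log2 ratio of −1.14 (−1.26 to −1.03). With the nuclei called doublets put back it was −1.48, the same direction. Gal and Agrp differed little in summed level. Gal had 660 and 761 UMIs (6.83 and 5.43 CPM), a log2 ratio of −0.33 (−0.48 to −0.18). Agrp had 3154 and 3904 UMIs (32.6 and 27.8 CPM), a log2 ratio of −0.23 (−0.30 to −0.16). Most Agrp UMIs lay in nuclei with fewer than 10 of them, 2951 in Normal and 3854 in SAH. The 11 Normal nuclei with 10 or more Agrp UMIs held 203, and the 4 SAH nuclei held 50.

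Pmch was the only member with an interval above 0. Its 346 and 933 UMIs (3.58 and 6.65 CPM) gave a log2 ratio of 0.89 (0.71 to 1.08) over kept nuclei. Over all deposited nuclei the UMIs were 1099 and 1314 and the ratio was −0.33 (−0.45 to −0.21), so its direction turned with the filter. Hcrt, with 84 and 150 UMIs and a ratio of 0.30 (−0.10 to 0.70), changed sign too, to −0.77 (−1.09 to −0.46) over all deposited nuclei.

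**Figure D2:**
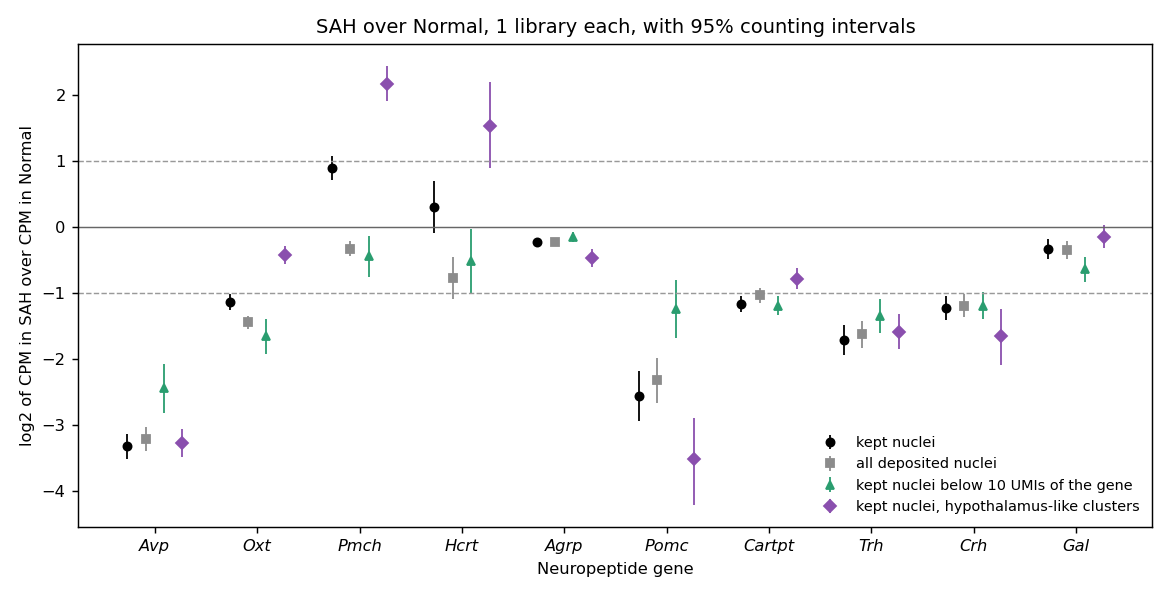
Log2 ratio of CPM in SAH over CPM in Normal for each gene (vertical axis) over kept nuclei (circles), all deposited nuclei (squares), kept nuclei with fewer than 10 UMIs of the gene (triangles) and kept nuclei of hypothalamus-like clusters (diamonds); bars are 95% counting intervals and dashed lines mark 2-fold. Avp, Pomc, Trh and Crh lie below −1 in all 4 sets, while Pmch and Hcrt lie on both sides of 0.

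The level of hypothalamic markers and the share of nuclei in clusters that carry them were also lower in SAH. After clustering without the members and their pathway genes, 4 of 47 clusters carried at least 7 of 22 hypothalamic markers and are called hypothalamus-like here. Their 10 leading genes included Ebf1 and Klhl1 in cluster 1, Gal, Oxt, Baiap3 and Stk32a in cluster 9, Meis1 and Glra3 in cluster 10, and Avp and Sim1 in cluster 34. Cluster 1, the largest with 1126 Normal and 1451 SAH nuclei, carried 12 of the markers, but none was among its leading genes. Cluster 34 carried 7, the lowest number allowed. The name was given ahead of any other and needed a smaller part of its list than other names did. It therefore means hypothalamus-like by this rule only. The 4 clusters held 18.6% of Normal nuclei (17.8 to 19.3%) and 14.8% of SAH nuclei (14.2 to 15.3%). Of 20 hypothalamic markers with 20 or more UMIs, 18 had a log2 ratio below 0 and 8 were at least 2-fold lower in SAH. Their median was −0.76. Over all genes with 20 or more UMIs, 4.49% were at least 2-fold lower and the median was −0.05. Most other marker lists shared the direction, with medians of −0.54 for microglia, −0.49 for caudal-type interneurons and −0.44 for GABA neurons in general. Of the 6 medial-type interneuron markers (median −0.41), 1 was at least 2-fold lower and 0 were at least 2-fold higher. The lower one was the peptide gene Sst, at 113 and 31.3 CPM (log2 ratio −1.85, −1.90 to −1.80), named here after its value was seen. Only the medians of the oligodendrocyte, ependymal and pituitary lists were above 0. The whole hypothalamic list summed to 86.4 CPM in Normal and 43.1 CPM in SAH. The part of this difference in the members' levels was not tested, and a difference in the tissue taken cannot be told apart from one in the animals with 1 pool a group.

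Within the hypothalamus-like clusters, a comparison that does not count nuclei of other classes, 4 members were at least 2-fold lower in SAH and 2 at least 2-fold higher. Over all 17755 genes with 20 or more UMIs there, 5.33% were at least 2-fold lower and 8.17% at least 2-fold higher. Avp was at 86.3 and 8.92 CPM (log2 ratio −3.27, −3.49 to −3.06), Pomc at 11.7 and 1.02 CPM (−3.53, −4.22 to −2.91), Trh at 21.8 and 7.24 CPM (−1.59, −1.86 to −1.32) and Crh at 9.08 and 2.87 CPM (−1.66, −2.10 to −1.24). Oxt and Cartpt, which were 2-fold lower over all nuclei, differed less here, with −0.43 (−0.57 to −0.29) and −0.79 (−0.94 to −0.63). Pmch at 7.73 and 34.9 CPM and Hcrt at 1.46 and 4.20 CPM were the higher pair, and each rested on the few nuclei named above.

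In Normal, a single cluster carried most of the Avp, 1524 of 1890 UMIs, while in SAH it carried 94 of 273. This cluster 34, with Sim1, a factor of the paraventricular lineage, among its leading genes, had 77 Normal and 68 SAH nuclei (0.703 and 0.438% of each library). Avp was at 2939 CPM in its Normal and 184 CPM in its SAH nuclei, and 15 of the former and 3 of the latter passed 10 UMIs. The other 4 Avp nuclei of SAH lay in clusters 1, 9 and 23, of which cluster 23 was glutamatergic forebrain-like. Oxt in cluster 34 was carried by 1 Normal nucleus with 251 of its 262 UMIs, and the SAH nuclei with 10 or more Oxt UMIs lay in clusters 1 and 9.

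With both libraries pooled, 9 members were highest in the hypothalamus-like clusters among the named classes, and Crh was not. Agrp was at 40.6 CPM in the hypothalamus-like clusters, with 23.7% of its UMIs. In glutamatergic forebrain-like ones it was at 29.8 CPM, with 52.3% of its UMIs. Within 1 library there were exceptions: in Normal a single nucleus with 60 Pmch UMIs put the oligodendrocyte-like class at 25.8 CPM, above the hypothalamus-like one at 7.73 CPM, Hcrt was at 3.45 CPM in microglia-like and 1.46 CPM in hypothalamus-like nuclei, and in SAH Pomc was at 1.504 CPM in caudal-type interneuron-like and 1.02 CPM in hypothalamus-like nuclei. Crh stood at 139 CPM in Normal and 74.0 CPM in SAH in caudal-type interneuron-like clusters, with 54.4% of all Crh UMIs, against 9.08 and 2.87 CPM in the hypothalamus-like clusters. Cluster 25, led by Vip, which marks interneurons that mostly inhibit other interneurons, held 312 Normal and 241 SAH UMIs of Crh (268 and 148 CPM, log2 ratio −0.85, −1.10 to −0.61). A Crh UMI was seen in 28.2% of Normal and 18.5% of SAH nuclei of the caudal-type class, and in 18.5 and 10.0% after each nucleus was thinned to 2000 UMIs. Of the 11 Normal nuclei with 10 or more Crh UMIs 7 lay in cluster 25 and 4 in hypothalamus-like clusters, and of the 5 in SAH 4 lay in cluster 25 and none in hypothalamus-like ones.

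Cartpt had 63.5% of its UMIs in the hypothalamus-like clusters, 19.8% in glutamatergic forebrain-like and 6.62% in medial-type interneuron-like ones. In the glutamatergic class it was at 6.20 and 1.72 CPM, and in the medial-type class at 10.48 and 5.32 CPM, lower in SAH in both. Gal had 78.3% of its UMIs in the hypothalamus-like clusters and 8.09% in thalamus-like ones, where it was at 5.08 and 6.71 CPM. Cluster 9 held most of it, at 108 and 131 CPM (log2 ratio 0.28, 0.06 to 0.50).

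**Figure D3:**
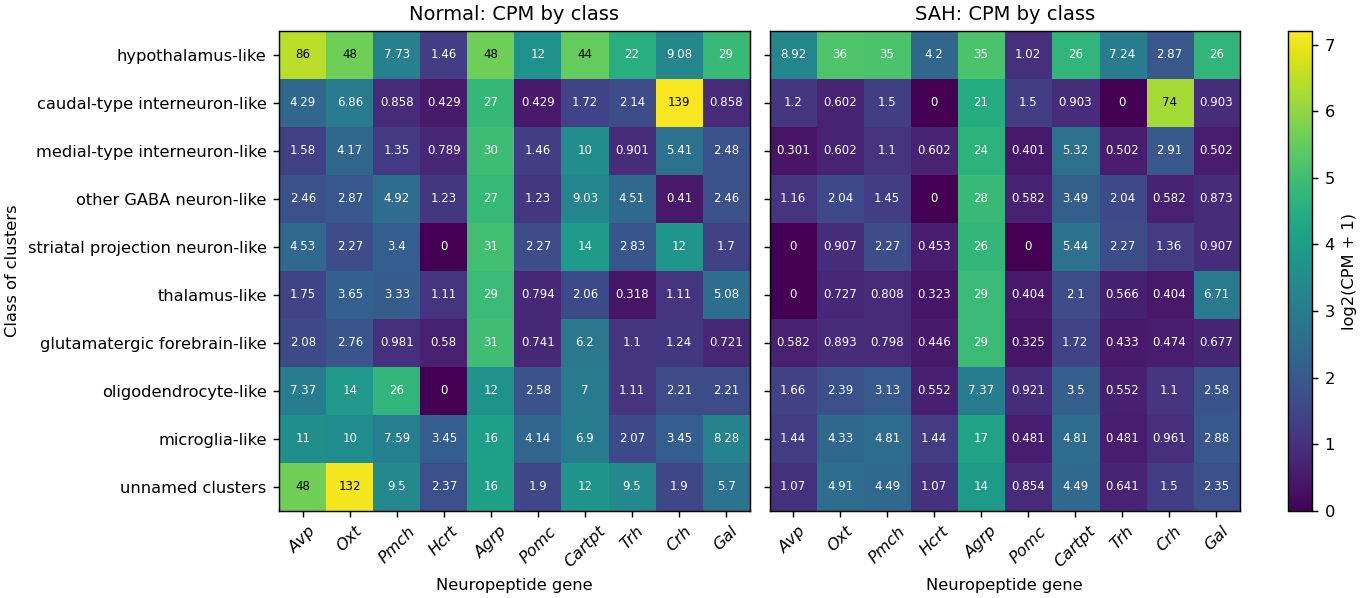
Level of each gene (columns) in the classes of clusters (rows) in Normal (left) and SAH (right); the numbers are CPM and the colour is log2(CPM + 1). The hypothalamus-like row is bright for most genes, Crh peaks in the caudal-type interneuron-like row (139 and 74.0 CPM), and Agrp is at 21.1 CPM or more in every neuron-like row; the high Oxt value among unnamed clusters is mostly 1 shallow nucleus with 256 UMIs.

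Nuclei outside these few still held single UMIs. Below 10 UMIs of the gene, all 10 members had a lower level in SAH, with an interval below 0 for each, as for 41.2% of all 22263 genes with 20 or more UMIs counted that way. Avp was at 3.07 and 0.564 CPM there (log2 ratio −2.44, −2.82 to −2.08) and Oxt at 3.90 and 1.23 CPM (−1.66, −1.93 to −1.40). For glia, which are not known as a source of these hormones, UMIs per 1000 nuclei are given. Oligodendrocyte-like and microglia-like nuclei held 16.6 Avp and 24.0 Oxt UMIs per 1000 nuclei in Normal, and 3.70 and 6.79 in SAH. Glutamatergic forebrain-like nuclei, several-fold deeper, held 26.8 Avp and 35.6 Oxt UMIs per 1000 nuclei in Normal and 5.14 and 12.1 in SAH. An Avp UMI was seen in 1.69% of oligodendrocyte-like and 2.58% of glutamatergic Normal nuclei, at a median of 1993 and 10810 UMIs, and shares of this size are read as background.

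The mix of the hormones in that background was compared with the mix in the library. Avp made up 40.9% of Avp and Oxt UMIs in the Normal glia (30.5 to 51.9%), 43.0% in glutamatergic nuclei (36.7 to 49.5%) and 45.9% over all deposited Normal nuclei. In SAH the shares were 35.3% in glia (19.7 to 53.5%), 29.8% in glutamatergic nuclei (20.8 to 40.1%) and 19.97% over all deposited nuclei (18.01 to 22.05%). In Normal the library's share lies within both intervals. In SAH it lies within that of the glia and below that of the glutamatergic nuclei. Over all kept SAH nuclei below 10 UMIs, which include hypothalamus-like ones, Avp made up 31.3% (25.7 to 37.5%). The interval of the SAH library is too narrow, since 8 nuclei held 1036 of its 1246 Oxt UMIs and 8 held 204 of its 311 Avp UMIs. Whether the Avp share of the glutamatergic SAH nuclei differs from that of the library as a whole is therefore not decided. The wide interval of the glia cannot decide this either.

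Agrp was higher in the neurons than in the glia, also at equal depth. It was at 397 UMIs per 1000 glutamatergic nuclei in Normal and 395 in SAH, and at 25.3 and 23.1 in glia. A UMI of Agrp was seen in 30.01 and 30.32% of glutamatergic nuclei and in 2.37 and 1.70% of oligodendrocyte-like ones, and after thinning to 2000 UMIs in 6.36 and 5.45% against 2.21 and 1.52%. Whether it comes from the 1.60 kb transcript or from the rest of the 70.7 kb model cannot be read from the counts. Cartpt was at 74.8 and 21.5 UMIs per 1000 of the deeper glutamatergic nuclei and at 13.4 and 8.95 in glia. Relative to all UMIs it was at 5.81 and 1.58 CPM in the former and 6.97 and 3.86 CPM in the latter, and after thinning 1.17 and 0.351% of glutamatergic and 1.19 and 0.652% of oligodendrocyte-like nuclei held a UMI, so it was not higher in these neurons at equal depth.

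**Figure D4:**
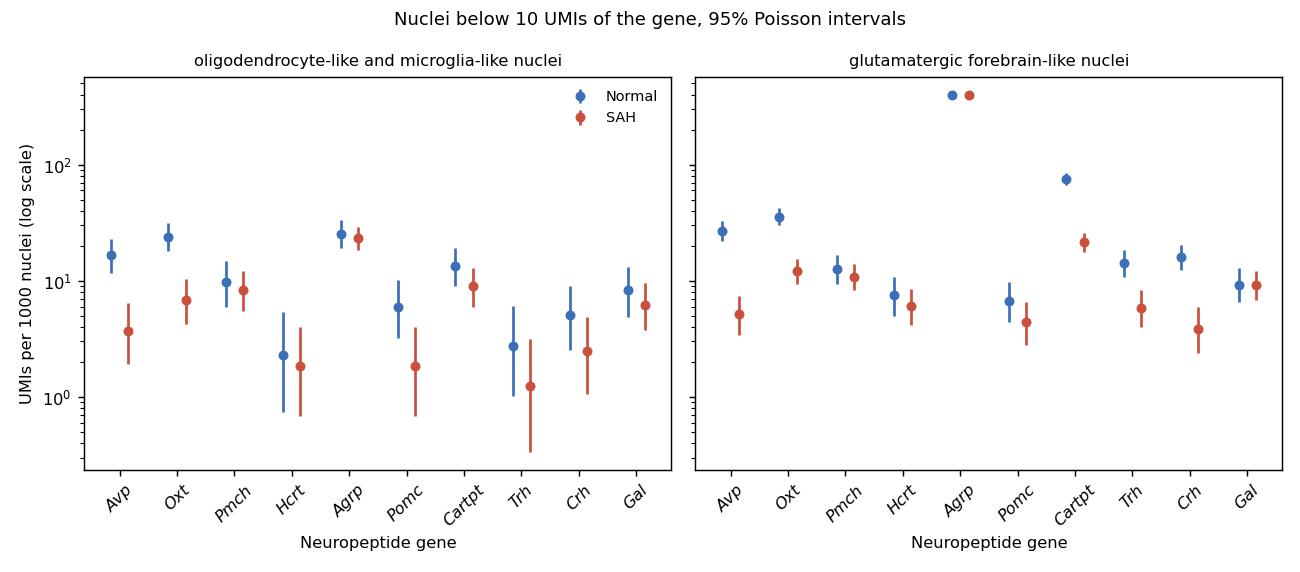
UMIs per 1000 nuclei (log axis) of each gene in oligodendrocyte-like and microglia-like nuclei (left) and in glutamatergic forebrain-like nuclei (right), counting only nuclei with fewer than 10 UMIs of the gene, for Normal (blue) and SAH (red) with 95% Poisson intervals. Avp and Oxt are lower in SAH in both panels, and Agrp is level between libraries but higher in the neurons (397 and 395) than in the glia.

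The nuclei with 10 or more UMIs of a peptide carried other genes, none of which had been used to pick them. Sim1 was seen in 20 of 23 Avp nuclei, 8 of 9 Oxt nuclei and 10 of 12 Trh nuclei, against 2.65 to 2.71% of other neuron-like nuclei. All 12 Trh nuclei also held Slc17a6, the vesicular glutamate transporter of deep brain regions. Npy, the partner of Agrp, was seen in 15 of 15 Agrp nuclei, with 240 UMIs in all, against 9.90% of the others. Gad2, an enzyme of GABA synthesis, was in 11 of those 15, in 23 of 31 Gal nuclei and in 13 of 16 Crh nuclei, against 29.4% of others.

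Pairs of members past 10 UMIs in the same nucleus were seen 5 times in Normal and 3 times in SAH among kept nuclei, and 6 times in each library among all deposited nuclei. Pomc and Cartpt shared 3 Normal nuclei, with 97 and 86, 45 and 22, and 25 and 30 UMIs. Pmch and Cartpt shared 1 nucleus in each library, with 119 and 13 UMIs in Normal and 116 and 22 in SAH. Cartpt and Crh shared a Normal nucleus with 38 and 11 UMIs. Avp and Gal shared 2 SAH nuclei, with 23 and 57 and with 18 and 37 UMIs, and both of these held Gad2, with 9 and 10 UMIs, and no Sim1. Of the pairs removed as likely doublets, 3 were Pmch with Cartpt (129 and 14 UMIs in Normal, 217 and 19 and 129 and 16 in SAH) and 1 was Avp with Gal in SAH (10 and 21 UMIs). The Avp nuclei of Normal included none of this kind, with at most 1 Gal UMI each.

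Vip was seen in 11 of 16 Crh nuclei, with 10 or more UMIs in 10 of them and up to 207. The 4 Normal Crh nuclei in hypothalamus-like clusters included 1 with a single Vip UMI, and the others had none. Of the 11 Crh nuclei in cluster 25, 10 were rich in Vip.

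**Figure D5:**
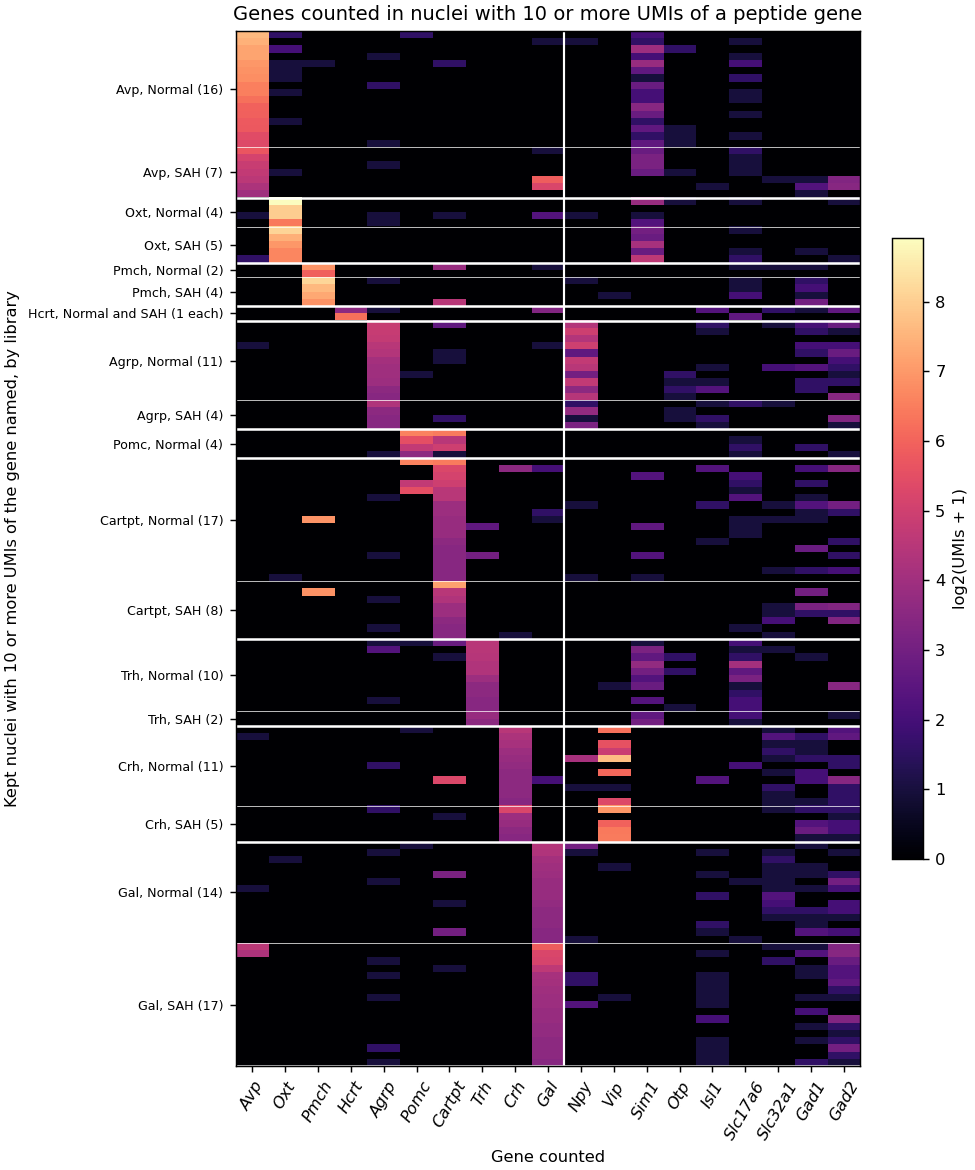
UMIs on a log2(UMIs + 1) colour scale in each kept nucleus with 10 or more UMIs of a member (rows, grouped by member and library with the number of nuclei in brackets; a nucleus past 10 UMIs of 2 members is drawn in both groups), for the members (left of the white line) and for Npy, Vip and lineage and transmitter genes (right). Sim1 runs through the Avp, Oxt and Trh rows, Npy through the Agrp rows and Vip through most Crh rows, and 2 SAH nuclei are bright for both Avp and Gal.

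Ranked by their level in these nuclei over that in all other kept neuron-like nuclei, with both libraries pooled, the leading genes were named by a fixed rule. A pooled fold can exceed that of either library. For Fos in Avp nuclei it was 74.1 in Normal and 11.5 in SAH, and for Npy in Agrp nuclei 44.5 and 38.0. Some SAH folds rest on few UMIs, such as 1 of Fos in Avp nuclei and 3 of Ebf1 in Trh nuclei. For Avp the leading genes were Fos (84.1-fold), Sim1 (69.2-fold), Caprin2 (31.7-fold), Pcsk1 (15.0-fold) and Fign (12.5-fold). Fos, an early gene switched on by activity, had 51 UMIs in the 16 Normal nuclei and 1 in the 7 SAH nuclei. Caprin2, an RNA-binding protein that acts on vasopressin mRNA, had 128 and 7. These are raw counts in nuclei of a different mix, since the SAH nuclei with 23, 18 and 15 Avp UMIs held no Sim1. Leading genes needed 50 UMIs over both libraries, and Fos and Caprin2 reached this only through Normal. The rule thus favoured genes with high Normal counts, and the counts of the 2 libraries are given as a description only. Fos was also lower in the other neuron-like nuclei of SAH, since its folds over them, 74.1 and 11.5, lie closer together than its counts. A lower Fos level in SAH was thus not confined to Avp nuclei. Pcsk1 encodes a convertase that cuts hormone precursors. For Trh they were Sim1 (52.6-fold), Ebf1 (12.3-fold), Resp18 (12.1-fold), Gpc5 (9.62-fold) and Arhgap24 (7.93-fold).

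For Agrp the leading genes were Npy (57.6-fold), Prune2 (21.98-fold), Ghr (20.4-fold), Acvr1c (16.0-fold) and Arhgap6 (15.9-fold), of which Ghr encodes the growth hormone receptor. For Crh they were Vip (125-fold), Cxcl14 (95.2-fold), Tac2 (58.7-fold), Igf1 (15.3-fold) and Penk (12.9-fold). For Cartpt they were Pmch (207-fold), Hcrtr2 (8.38-fold), Pde1c (7.78-fold), Gm15261 (6.21-fold) and Zdbf2 (5.73-fold), and the Pmch value came from the 2 shared nuclei. For Gal they were Hmcn1 (24.8-fold), Stk32a (16.7-fold), Gm45341 (5.30-fold), Gm2516 (5.14-fold) and Resp18 (5.14-fold).

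Across the 47 clusters, with both libraries pooled, the genes whose log2(CPM + 1) followed each member most closely were named by Pearson's r. The clusters share libraries and differ in depth, and the values are descriptions. Avp was followed by Lhx1os (r = 0.845) and Oxt (0.836), Trh by Lhx1os (0.77), Arhgap36 (0.76) and Dlk1 (0.76), and Gal by Tmem26 (0.77), Oxt (0.75) and Arhgap36 (0.74). Crh was followed by Vip (0.75), Htr3a (0.73) and Grpr (0.69), and Cartpt by Uncx (0.69), Gpx3 (0.67) and Comtd1 (0.65). Agrp was followed by Gm19461 (0.79), 5330417C22Rik (0.79) and Srrm3 (0.79).

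The wider pathway held 55 genes in 4 lists, of which 51 had 20 or more UMIs. Over kept nuclei 5 of them were at least 2-fold lower in SAH and 2 at least 2-fold higher, against 4.49% and 11.9% of all genes. Centring on the median of all genes left 3 lower (Crhbp, Npy and Nts), and Hcrtr1 and Scg2 no longer passed. Among 16 measured receptors, Hcrtr1, an orexin receptor, was lower at 1.31 and 0.642 CPM (log2 ratio −1.03, −1.44 to −0.63), and none was 2-fold higher. The list's median was −0.13. Among 13 genes of precursor processing and dense-core vesicles the median was −0.43, and Scg2, a granin of those vesicles, was lower at 131 and 65.5 CPM (−1.01, −1.05 to −0.97).

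Among 9 binding and degrading proteins the median was −0.11, and Crhbp, which binds corticotropin-releasing hormone, was lower at 9.79 and 4.08 CPM (log2 ratio −1.26, −1.42 to −1.11). Among 13 other measured peptides the median was −0.57. Npy was lower at 44.4 and 17.7 CPM (−1.32, −1.39 to −1.25) and Nts, neurotensin, at 12.4 and 4.70 CPM (−1.40, −1.54 to −1.26). Qrfp (7 and 45 UMIs) and Ucn3 (5 and 30 UMIs), named here after their values were seen, were the higher ones. No UMI of Kiss1 was counted. The median over all 51 was −0.24 against −0.05 over all genes.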

How the data were processed

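The authors deposited raw UMI counts per gene and nucleus for 2 libraries, 1 per group, and these counts are the only unit used. The matrix headers name Cell Ranger 6.1.2, and the submitters' processing notes Cell Ranger 5.0.0 with build mm10; the study's methods state that introns were counted. Nuclei with 300 to 7000 genes, under 10% mitochondrial, under 3% haemoglobin and under 100000 UMIs were kept, and the highest Scrublet scores (scanpy 1.11.5) were removed at 0.8% per 1000 nuclei, 1178 in Normal and 2644 in SAH. Seurat 5.3.0 integrated the libraries (2000 features, 25 components, resolution 1.2) with 65 member and pathway genes left out. Clusters were named from marker lists, by a rule set after the clusters were seen (markers at 3 times the 25th percentile of clusters); 7 of 47 stayed unnamed. A gene was counted as differing at 2-fold with 20 or more UMIs. Leading genes needed 50 UMIs in the nuclei named, and genes like a member 200 UMIs in all. The members and lists were chosen with earlier results of these data known. Calculations used Python 3.11.15, scipy 1.17.1 and R 4.3.3, and were tested on simulated data. For the intervals these were independent Poisson counts, which cannot show how the intervals fare where a few nuclei hold most UMIs. Alternatives concerned filters, doublets, thresholds, scaling and clustering. Free RNA was not removed, so levels include background. One gene that the naming rule gave is not reported here.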

Additional observations from a re-analysis of the deposited data

How the results depend on the processing

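The count of 6 members at least 2-fold lower in SAH was 6 of the same members (Avp, Oxt, Pomc, Cartpt, Trh, Crh) under all 8 alternatives. With the doublet caller's own threshold 1 member, Pmch (log2 ratio 1.18), was at least 2-fold higher, against 0. The log2 ratio of Pmch turned to −0.31 with no removal of doublets, −0.33 over all deposited nuclei and −0.69 as a mean of per-nucleus CPM. Nuclei with 10 or more UMIs of a member (85 in Normal, 50 in SAH) numbered 201 and 124 at a threshold of 5 UMIs, 38 and 20 at 20 UMIs, and 138 in Normal at 3 UMIs and 1000 CPM. Naming nuclei singly left 54 and 32 hypothalamus-like nuclei, in which 3 rather than 9 members were highest. Centring left 3 of 5 pathway genes lower. Of 80 values of single log2 ratios under alternatives, 59 moved by less than their counting interval, 18 moved further and 3, those of Pmch, reversed. Hcrt, whose interval spans 0, was at −0.77 without filters. All 10 members also had intervals below 0 in nuclei below 5 UMIs, without doublet removal and without filters, alternatives chosen after seeing the data. The share over all genes was not counted under these alternatives. In the main setting it was 41.2%. The cause of the shifts in log2 ratios was not tested. No paired analysis was possible because each group has 1 library. Depth limits genes with few nuclei: 3 counts in 10955 and 15536 nuclei are 0.0274 and 0.0193%.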
